A study of Mus musculus with 27 samples.

Results

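The genes of ornithine handling and of polyamine synthesis and breakdown were compared in the colon of different mice. These were negative controls and mice with chemically induced neoplasia, given chemotherapy or not. The set has 10 genes of the 39971 in the deposited table, taken by gene name: the ornithine enzymes Otc, Arg1 and Arg2, the synthesis genes Odc1, Srm, Sms and Azin1, and the breakdown enzymes Smox, Sat1 and Aoc1. All 10 passed the filter on low values that left 15080 genes for testing. The members were chosen by pathway with results of these data in view, among them the log2 fold changes between FOLFOX-treated and untreated neoplasia. Their values in that comparison are therefore a description, with no test.

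RNA was sequenced from 27 BALB/c mice of genotype WT. The 6 NC mice, the negative control, received normal saline i.p. and i.g. (into the peritoneum and the stomach), without AOM/DSS, and the labelled tissue was colon. All other mice had AOM/DSS, the carcinogen azoxymethane with the colon irritant dextran sulfate sodium, and the labelled tissue was a colon segment bearing tumor, so tissue source and AOM/DSS cannot be told apart. The CAC group (n = 5) had saline by both routes, CAC_F (n = 5) had FOLFOX i.p. (folinic acid, fluorouracil and oxaliplatin) with saline i.g., CAC_FP (n = 5) had FOLFOX i.p. with a probiotic complex i.g., and CAC_FPL (n = 6) had FOLFOX i.p. with probiotics and loperamide i.g. Loperamide acts on opioid receptors of the gut and slows transit. Tissue was taken 1 week after the start of chemotherapy. The labels give 1 batch for all libraries, and neither pooling of mice nor their age.

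Arginase splits arginine into urea and ornithine, and ornithine then has several fates. Otc, the mitochondrial ornithine carbamoyltransferase, turns it into citrulline, a step of the urea cycle in liver and of citrulline formation in gut epithelium. Ornithine decarboxylase (Odc1) turns it into putrescine, which opens polyamine synthesis. Spermidine and spermine, made from putrescine, are polycations that dividing cells need in quantity, and gut epithelium renews itself fast. Breakdown runs through acetylation by Sat1, oxidation of spermine by Smox, and oxidation of putrescine and histamine outside the cell by Aoc1, the diamine oxidase of intestinal epithelium.

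Total counts were 56687812 to 79709845 per library. Levels are given as CPM, each gene's share of a library's counts after TMM scaling (edgeR's correction for library composition), and levels of different genes are compared only by the authors' FPKM, which divides by gene length. Transcripts of epithelium were abundant in all libraries: the 8 pan-epithelial markers summed to between 6209 and 12459 CPM. Arginase 1 and Otc are also liver genes, and 8 hepatocyte markers were followed for that reason. Fgb was at 0 in all libraries but CAC replicate 5 (0.0601 CPM), but other markers of the list were present. The 8 summed to 4.68 to 305 CPM, and the highest sums were 305 CPM in a CAC_FPL library and 145 CPM in an NC library. Their part in the Otc and Arg1 levels was not tested. CAC replicate 2 and CAC_FPL replicate 3 stood apart by the 6 Hox genes of the distal gut, which summed to 144 and 395 CPM against 3.92 to 47.3 CPM in the other libraries. CAC_FP replicate 3 held 371 CPM of the 8 small-intestine markers, the highest sum of the 27. Results that rest on these libraries are given with and without them. Since these are bulk samples, fewer cells of a type and less RNA per cell cannot be told apart.

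RefSeq promoter windows were matched for 6 members. The 250 bases before the annotated start are shown for 5 of them because the genes that were higher in CAC_F than in CAC (Odc1, Smox, Sat1) and those that were lower (Otc, Aoc1) can then be compared by eye. The windows lie on build GRCm38.p6 at chr12:17544623-17544872 (plus strand) for Odc1, chr2:131491612-131491861 (plus strand) for Smox, chrX:155216450-155216699 (minus strand) for Sat1, chrX:10252055-10252304 (plus strand) for Otc and chr6:48904736-48904985 (plus strand) for the downstream of 2 Aoc1 windows. Each is printed 5′ to 3′ on the gene's strand, and capitals mark the GC box GGGCGG or the CDX-type motif TTTATG, on either strand.
Odc1: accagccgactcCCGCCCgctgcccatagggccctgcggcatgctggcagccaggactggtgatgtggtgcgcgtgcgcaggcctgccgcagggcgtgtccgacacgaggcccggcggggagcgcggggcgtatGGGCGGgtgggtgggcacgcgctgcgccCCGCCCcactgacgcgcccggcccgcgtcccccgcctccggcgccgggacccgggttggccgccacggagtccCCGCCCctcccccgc
Smox: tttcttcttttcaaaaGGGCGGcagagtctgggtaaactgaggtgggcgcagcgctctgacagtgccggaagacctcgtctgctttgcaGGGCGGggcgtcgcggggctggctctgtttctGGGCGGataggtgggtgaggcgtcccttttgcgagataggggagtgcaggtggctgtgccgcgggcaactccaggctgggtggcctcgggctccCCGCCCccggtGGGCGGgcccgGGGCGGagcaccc
Sat1: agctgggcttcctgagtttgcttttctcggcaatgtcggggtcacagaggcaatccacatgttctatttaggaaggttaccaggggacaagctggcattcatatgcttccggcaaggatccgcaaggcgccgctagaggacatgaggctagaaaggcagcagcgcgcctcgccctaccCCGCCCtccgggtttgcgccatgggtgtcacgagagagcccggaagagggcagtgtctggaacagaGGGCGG
Otc: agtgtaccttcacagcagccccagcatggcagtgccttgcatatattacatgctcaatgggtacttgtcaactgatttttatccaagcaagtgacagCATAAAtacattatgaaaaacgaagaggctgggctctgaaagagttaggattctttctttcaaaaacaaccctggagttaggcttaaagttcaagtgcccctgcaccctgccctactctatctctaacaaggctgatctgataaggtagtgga
Aoc1: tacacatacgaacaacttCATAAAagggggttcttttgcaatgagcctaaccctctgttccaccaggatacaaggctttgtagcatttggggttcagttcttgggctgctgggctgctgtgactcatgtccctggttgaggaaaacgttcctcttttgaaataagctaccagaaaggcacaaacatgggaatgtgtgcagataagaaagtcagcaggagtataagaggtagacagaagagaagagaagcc

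GC boxes stood 4 times in the Odc1 window, 6 times in that of Smox and 2 times in that of Sat1. The windows of Otc and Aoc1 had none, and each of the 2 printed held 1 CDX-type motif. The first of 2 Sms windows, not shown, held 4 GC boxes, 3 of which overlapped. Of the 32851 mouse promoter windows of the same length, 32.74% held at least 1 GC box and 10.76% at least 1 CDX-type motif. GC content was 80.0% for Odc1, 68.0% for Smox and 59.6% for Sat1, against 43.6% for Otc, 45.6% for the printed Aoc1 window and a median of 52.4% over all windows. The genes' other windows departed from this split: the second Sms window had 47.2% GC and no GC box, and the first Aoc1 window 51.2% GC and no CDX-type motif. The E-box CACGTG, found in 6.02% of windows, stood in the second Sms window and in no other window of a member, and the TATA box TATAAA (12.37% of windows) in none. These matches describe letters in short windows and say nothing of binding. Arg1, Arg2, Srm and Azin1 had no window in the table used.

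In untreated colon the members covered a wide span of levels. By FPKM, which can be compared between genes, Odc1 had 50.4 ± 4.25 (SD, n = 6), Sat1 49.1 ± 3.01 and Azin1 44.0 ± 5.92, and the ranges of these 3 overlapped. Srm followed with an FPKM of 21.0 ± 3.71 and Aoc1 with 18.5 ± 5.73, again with overlapping ranges. Below them lay the FPKM of Smox at 7.27 ± 0.873, Arg2 at 5.85 ± 1.37, Otc at 3.75 ± 0.920, Sms at 2.53 ± 0.343 and Arg1 at 0.973 ± 0.274. Arginase 2, the mitochondrial form, was thus the more abundant arginase transcript of the colon, as it was in each of the other groups. The deposited table places Odc1 at chr12:17594795-17601085, Otc at chrX:10118544-10187263, Arg1 at chr10:24791119-24803382, Smox at chr2:131333416-131367842 and Aoc1 at chr6:48849830-48886122, on a build not named in the sources used here, whose positions differ from those of the promoter windows.

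**Figure D1:**
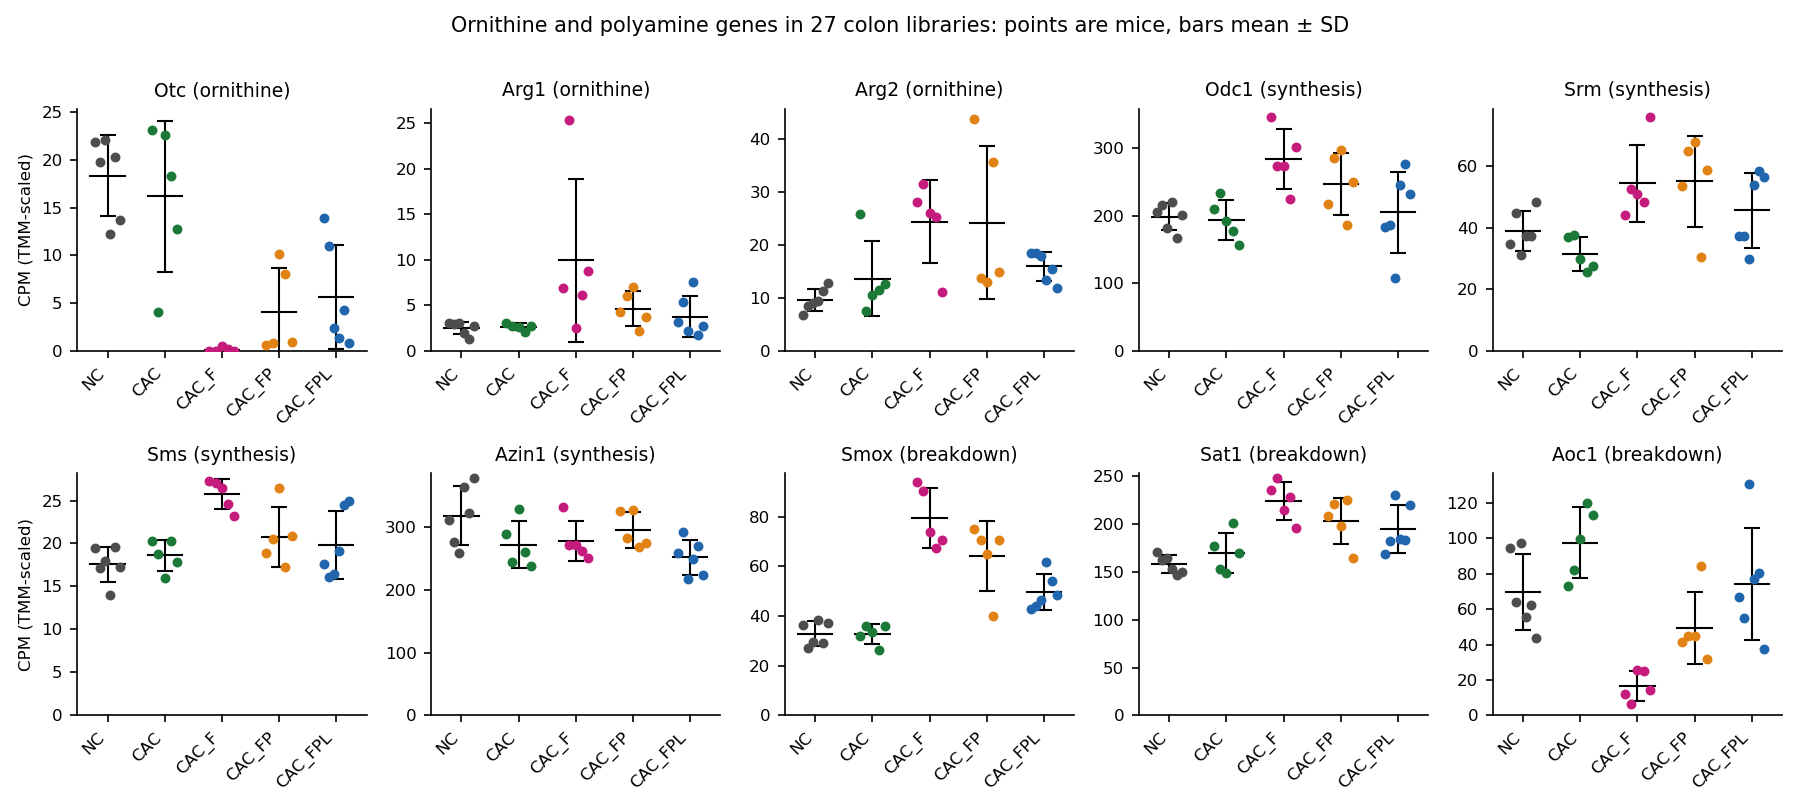
CPM of each of the 10 genes (vertical axes from 0, TMM-scaled) in the 5 groups, with 1 point per mouse and bars for the mean ± SD (n = 6, 5, 5, 5 and 6). Otc and Aoc1 sit lowest in CAC_F, whereas Smox sits highest there, at 67.5 to 94.2 CPM against 26.2 to 36.1 in CAC.

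Otc showed the widest swing of the set. It had 12.3, 20.0 and 22.1 CPM (lowest, median, highest) in NC and 23.1, 4.07, 22.6, 18.3 and 12.7 CPM in the 5 CAC mice. In CAC_F it had 0, 0, 0.491, 0.210 and 0 CPM. The FOLFOX libraries thus lay below all CAC and NC libraries, 3 of 5 with no count at all, where a count of 0 allows up to 3 counts or 0.036 to 0.0496 CPM. The 47 Otc counts of the group came from 2 libraries, replicate 3 with 33 and replicate 4 with 14. In the CAC_FP mice Otc had 0.602, 0.795, 10.2, 8.01 and 0.918 CPM, and in CAC_FPL 0.870, 3.37 and 13.9 CPM (lowest, median, highest). All libraries of these groups lay above all of CAC_F, but only 2 of 5 in CAC_FP passed 1 CPM.

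The Otc difference between CAC_F and CAC was -6.84 ± 1.14 (log2 fold change ± SE), or 114-fold lower, a description for the reason given above. Its size depends on the scale, since on log2(FPKM + 1) it was -1.99 and on log2(FPKM + 0.1) it was -4.60. CAC replicate 2, the lowest CAC library for Otc at 4.07 CPM, is one of the libraries with distal Hox transcripts, and without it and CAC_FPL replicate 3 the difference was -7.06. Between CAC_FP and CAC_F the Otc difference was 4.86 ± 1.06, which missed the threshold in edgeR's quasi-likelihood test (adjusted p = 0.119). It passed in DESeq2 (4.86, adjusted p = 0.00194) and in edgeR without CAC_F replicate 3, the CAC_F library with the most Otc (6.25, adjusted p = 0.017). The CAC_F libraries took part in choosing the set, so these p-values are not independent of that choice. Over the 22 alternatives run, the adjusted p ran from 0.00194 to 0.436. Among the CAC_FP mice, the highest Otc level came from replicate 3, the library rich in small-intestine transcripts, which also held 21.5 CPM of Cps1, the partner enzyme that makes carbamoyl phosphate. Without that replicate the difference was 4.18 (adjusted p = 0.215). In the other 4 CAC_FP libraries Cps1 reached at most 0.251 CPM, among them replicate 4 with Otc at 8.01 CPM. Otc without Cps1 also occurred in NC, where replicates 3, 5 and 6 had 0 CPM of Cps1 and 22.1, 20.3 and 13.7 CPM of Otc. NC replicate 2 had 6.71 CPM of Cps1 and 19.8 CPM of Otc. The part of small-intestine tissue in the Otc level was not tested.

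Arg1, the cytosolic arginase of liver and of some myeloid cells, was scarce in NC with 1.36, 2.86 and 3.07 CPM and in CAC with 3.08, 2.79, 2.64, 2.04 and 2.78 CPM. The CAC_F libraries had 6.87, 25.3, 2.52, 6.17 and 8.72 CPM, with replicate 2 far above the others. Arg1 was 3.72-fold higher in CAC_F than in CAC (1.90 ± 0.47), and without replicate 2 of CAC_F the log2 difference was 1.21. That library also had the highest sum of the 10 macrophage and monocyte markers of all 27, 1848 CPM, and the lowest sum of colonocyte markers, 1389.5 CPM. The part of these cells in the Arg1 level was not tested. In CAC_FP, Arg1 had 4.27, 6.02, 7.00, 2.14 and 3.77 CPM and in CAC_FPL 1.71, 2.95 and 7.56 CPM, and both groups overlapped NC, CAC and CAC_F.

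Arg2, the mitochondrial arginase, had 6.85, 9.22 and 12.8 CPM in NC, 25.8, 7.62, 10.6, 11.6 and 12.6 CPM in CAC and 28.1, 31.4, 26.0, 25.3 and 11.2 CPM in CAC_F. Most CAC_F libraries were above most CAC libraries, but CAC replicate 1 and CAC_F replicate 5 crossed over, and the log2 difference of 0.84 ± 0.34 was not among the calls of that comparison. The CAC_FP mice split, at 43.8, 13.8, 13.0, 35.6 and 14.9 CPM, with replicates 1 and 4 high and the other 3 near the upper NC levels. All 5 lay above the highest NC mouse, and Arg2 rose by 1.33 ± 0.32 from NC to CAC_FP (edgeR, adjusted p = 0.00467). In CAC_FPL, Arg2 had 11.9, 16.7 and 18.5 CPM, 0.72 ± 0.31 on the log2 scale relative to NC, which missed the threshold (adjusted p = 0.141).

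Odc1, the enzyme that commits ornithine to polyamines, was one of the abundant transcripts. It had 167, 203 and 221 CPM in NC, 209.6, 234, 192, 177 and 156 CPM in CAC and 346, 274, 274, 224 and 302 CPM in CAC_F. The 4 highest CAC_F libraries exceeded all of CAC, and the lowest CAC_F library lay within the CAC range. Odc1 was 1.47-fold higher in CAC_F than in CAC (0.55 ± 0.18), and 0.65 without the 2 libraries with distal Hox transcripts. The CAC_FP mice had 217, 286, 297, 186 and 250.2 CPM of Odc1. In CAC_FPL it had 108, 209 and 277 CPM, and the lowest of these was replicate 3, which stands apart. Both groups overlapped NC, CAC and CAC_F.

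Srm, the spermidine synthase that adds an aminopropyl group to putrescine, had 31.1, 37.3 and 48.3 CPM in NC and 37.1, 37.7, 29.8, 25.7 and 27.4 CPM in CAC. In CAC_F it had 44.1, 52.4, 50.9, 48.1 and 76.0 CPM, so that all 5 CAC_F libraries lay above all of CAC but not above all of NC. Srm was 1.72-fold higher in CAC_F than in CAC (0.78 ± 0.21). The CAC_FP libraries, at 53.3, 64.7, 67.6, 30.5 and 58.8 CPM, averaged 55.0 ± 14.8 CPM (SD, n = 5) against 54.3 ± 12.5 CPM in CAC_F, a log2 difference of 0.018 ± 0.20. In CAC_FPL, Srm had 30.0, 45.7 and 58.4 CPM.

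Sms, the spermine synthase, was the least abundant synthesis transcript by FPKM. It averaged 17.6 ± 2.02 CPM in NC and 18.6 ± 1.81 CPM in CAC. All 5 CAC_F libraries, at 23.2 to 27.3 CPM, lay above the CAC range of 16.0 to 20.3 CPM, a log2 difference of 0.47 ± 0.13. In CAC_FP it ranged from 17.2 to 26.4 CPM and in CAC_FPL from 16.1 to 25.0 CPM. Its processed copy Sms-ps held counts equal to 22.1% to 35.8% of those of Sms in each library. Reads of the gene and the copy may have been split or shared, so the level of Sms is uncertain.

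Azin1, the antizyme inhibitor that protects ornithine decarboxylase from degradation, was the member that differed least between CAC_F and CAC, by 0.029 ± 0.11 on the log2 scale. It averaged 319 ± 46.8 CPM in NC, 273 ± 37.5 in CAC, 278 ± 32.0 in CAC_F, 296 ± 28.7 in CAC_FP and 252 ± 27.9 in CAC_FPL. Neighbouring groups overlapped throughout. The single call was lower in CAC_FPL than in NC (-0.34 ± 0.10, edgeR, adjusted p = 0.0474). It was lost in 20 of 25 alternatives, where the adjusted p of all 25 ran from 0.0248 to 0.141. Without CAC_FPL replicate 3 and CAC replicate 2 the adjusted p was 0.0685.

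Smox, the oxidase that turns spermine back into spermidine and releases hydrogen peroxide, was high in all 3 groups given FOLFOX. It had 27.3, 32.9 and 38.3 CPM in NC and 32.1, 36.1, 33.5, 26.2 and 36.0 CPM in CAC, and these ranges overlapped. The CAC_F libraries had 94.2, 90.3, 74.0, 67.5 and 70.6 CPM, all above every NC and CAC library. Between CAC_F and CAC the difference was 1.27 ± 0.15, or 2.42-fold. In CAC_FP it had 74.9, 70.6, 64.8, 40.0 and 70.5 CPM, with replicate 4 below the other 4, and in CAC_FPL 42.8, 47.5 and 61.8 CPM. All libraries of both groups still exceeded the highest NC library, at 38.3 CPM. In the comparisons with NC, Smox rose by 0.96 ± 0.14 in CAC_FP (edgeR, adjusted p = 0.000119) and by 0.59 ± 0.14 in CAC_FPL (adjusted p = 0.0111). Both calls passed in all alternatives run, 24 for CAC_FP and 25 for CAC_FPL. All 6 CAC_FPL libraries lay below all 5 of CAC_F.

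Sat1, the acetyltransferase that marks spermidine and spermine for export or oxidation, varied little within groups. It averaged 158 ± 9.40 CPM in NC, 169.9 ± 20.8 in CAC, 225 ± 19.9 in CAC_F, 204 ± 24.2 in CAC_FP and 195 ± 24.6 in CAC_FPL. CAC_F exceeded CAC by 0.40 ± 0.10, with 1 CAC library, at 201 CPM, above the lowest CAC_F library at 196. Relative to NC, Sat1 rose by 0.37 ± 0.10 in CAC_FP (edgeR, adjusted p = 0.00714) and by 0.30 ± 0.091 in CAC_FPL (adjusted p = 0.0421). The second call was lost in 17 of 25 alternatives, with adjusted p between 0.00721 and 0.126.

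Aoc1, the secreted diamine oxidase, moved against the other breakdown genes. It had 43.9, 63.4 and 97.2 CPM in NC and 73.0, 82.4, 99.5, 119.9 and 113 CPM in CAC. In CAC_F it had 12.1, 6.31, 25.6, 24.8 and 14.5 CPM, all below the lowest NC and CAC libraries, and 5.86-fold lower than in CAC (-2.55 ± 0.35). The CAC_FP libraries had 41.7, 44.7, 44.6, 84.3 and 31.8 CPM, all above all of CAC_F, and those of CAC_FPL 37.3, 71.8 and 131 CPM. From CAC_F to CAC_FP the difference was 1.57 ± 0.34, which missed the threshold in edgeR's test (adjusted p = 0.119). It passed in DESeq2 (1.56, adjusted p = 0.00486) and in edgeR without CAC_F replicate 3 (1.77, adjusted p = 0.0189). As for Otc, these p-values are not independent of the choice of the set, in which the CAC_F libraries took part. CAC_FPL differed from NC by 0.10 ± 0.31, less than the SE, while its highest library was replicate 3. Without that replicate and CAC replicate 2 the value was -0.13.

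Taking the members by comparison, none of the 10 differed between CAC and NC in edgeR's test, and 0.00663% of all tested genes were called. Azin1 had the smallest unadjusted p of the set there (-0.23, adjusted p = 0.644) and was the only member with an unadjusted p below 0.05, whereas 1164 genes were below it. DESeq2 called 41 genes and none of the members. For all 10 members the groups overlapped, and 1.09% of tested genes had groups that did not. Aoc1 differed by 0.49 ± 0.32 and Arg2 by 0.50 ± 0.32, within the spread of their groups.

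Between CAC_F and CAC, Arg1, Odc1, Srm, Sms, Smox and Sat1 were among the genes past the threshold in the higher direction, and Otc and Aoc1 in the lower, which for members is a description. Of all tested genes 19% were called higher and 20.2% lower, or 39.1% in either direction. Since the members were chosen with this comparison in view, nothing is read from their count of 8. Groups did not overlap for Otc, Srm, Sms, Smox and Aoc1, as for 20.8% of all tested genes. Without the 2 libraries with distal Hox transcripts, the log2 differences of Smox, Aoc1 and Srm were 1.34, -2.58 and 0.88.

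**Figure D2:**
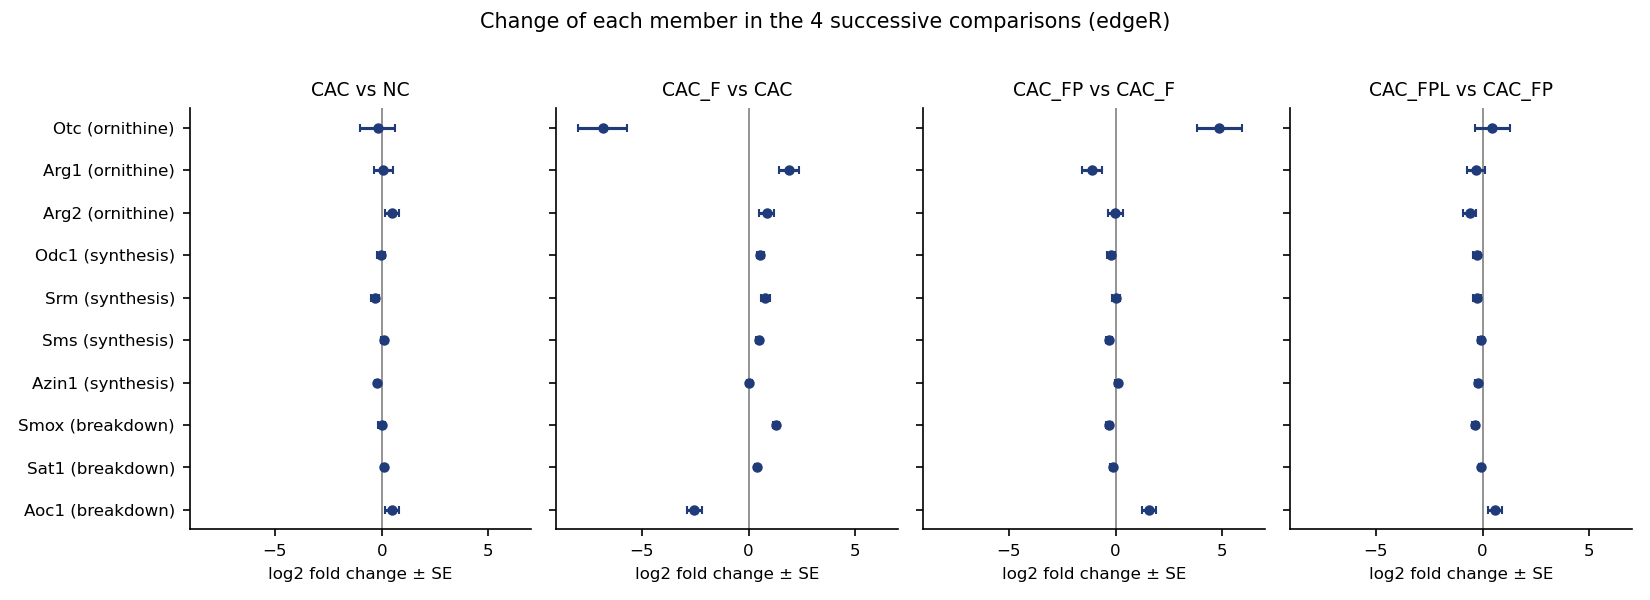
Log2 fold change ± SE (horizontal axes) of each of the 10 genes in 4 comparisons, the first-named group against the second. The largest differences are those of Otc and Aoc1, at -6.84 and -2.55 in CAC_F against CAC and 4.86 and 1.57 in CAC_FP against CAC_F.

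The 2 comparisons on either side of CAC_F share its 5 libraries, so their values are only set side by side. Those 5 libraries also took part in choosing the set. With the probiotic added, none of the 10 members passed edgeR's test, nor did any of the 15080 genes (0%), though 2401 genes and 5 members (Otc, Arg1, Sms, Smox and Aoc1) had an unadjusted p below 0.05. DESeq2 called 247 genes, among them Otc and Aoc1. Otc and Aoc1 were also the members whose groups did not overlap, as for 2.31% of tested genes. The log2 differences were -1.10 ± 0.45 for Arg1, -0.31 ± 0.13 for Sms and -0.31 ± 0.15 for Smox, against 1.90, 0.47 and 1.27 for FOLFOX.

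Adding loperamide to FOLFOX and probiotics gave no call among the members or among all tested genes (0%) in edgeR's test. Azin1 (-0.23 ± 0.11) and Smox (-0.37 ± 0.14) were the members with an unadjusted p below 0.05, as were 995 genes in all, and DESeq2 called 21 genes and no member. The groups overlapped for all 10 members, and 0.252% of tested genes had groups that did not overlap. Smox passed with limma's voom and library quality weights (-0.53, adjusted p = 0.0279), where 672 genes were called. Otc varied within both groups over a range far wider than its log2 difference of 0.46 ± 0.82.

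CAC_FPL and CAC_F, which differ by both the probiotic and loperamide, differed in 5 members, 2 higher and 3 lower, where 12.2% of all tested genes were called, 7.14% higher and 5.05% lower. Groups did not overlap for Otc, Smox and Aoc1, as for 3.16% of tested genes. Otc (5.32 ± 1.07, edgeR, adjusted p = 0.00702) and Aoc1 (2.16 ± 0.34, adjusted p = 0.00436) were higher in CAC_FPL. Arg1 (-1.39 ± 0.43, adjusted p = 0.0387), Sms (-0.38 ± 0.12, adjusted p = 0.048) and Smox were lower. The CAC_F libraries here are those that took part in choosing the set. With only these 2 groups fitted, none of the 15080 genes and no member was called, while the log2 differences were 5.32 for Otc, 2.15 for Aoc1 and -0.69 for Smox (adjusted p = 0.102 for each), -1.40 for Arg1 (adjusted p = 0.17) and -0.39 for Sms (adjusted p = 0.138). Without CAC_F replicate 2 the Arg1 difference was -0.70 (adjusted p = 0.246), and without the 2 libraries with distal Hox transcripts Arg1 and Sms missed the threshold (adjusted p = 0.0807 and 0.0981).

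In the comparisons of CAC_FP and CAC_FPL with NC no CAC or CAC_F library is on either side, although the fit estimates the spread from all 27 libraries. The set was chosen with results of these data in view, so these tests need not be independent of that choice either. In CAC_FP, 3 of 10 members were higher than in NC (Arg2, Smox and Sat1) and none lower, where 14.1% of all tested genes were called higher and 12.5% lower, or 26.5% together. Groups did not overlap for Otc, Arg2 and Smox, as for 16.6% of tested genes. In CAC_FPL, 2 were higher (Smox and Sat1) and 1 lower (Azin1), where 4.4% of tested genes were called higher and 2.68% lower, or 7.08% together. Smox was the 1 member whose groups did not overlap, as for 3.62% of tested genes. With the mean of 8 smooth muscle markers as a covariate, Smox kept its call in CAC_FP (adjusted p = 0.000742), while Arg2 (1.15, adjusted p = 0.0554) and Sat1 (0.33, adjusted p = 0.089) missed the threshold with log2 differences near those without it. Srm in CAC_FP lay near the threshold at 0.50 ± 0.20 (edgeR, adjusted p = 0.0592), and 9 of 24 alternatives called it higher, with adjusted p from 0.00272 to 0.253. Otc in CAC_FP, at -2.16 ± 0.87 with all 5 libraries below all of NC, had an adjusted p of 0.066 and was called lower in 8 of 23 alternatives, with adjusted p from 5.19e-05 to 0.151.

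Synthesis and breakdown were set against each other as the mean log2 CPM of Odc1, Srm, Sms and Azin1 minus that of Smox, Sat1 and Aoc1, a description over members that carries no test. Per library this difference was 0.14, 0.052, -0.095, -0.29 and -0.44 in CAC and 0.75, 0.96, 0.43, 0.33 and 0.87 in CAC_F. All 5 FOLFOX libraries thus lay above all 5 CAC libraries, with means of -0.13 ± 0.24 and 0.67 ± 0.28 (SD, n = 5). NC had a mean of 0.20 ± 0.24 (n = 6), CAC_FP of 0.16 ± 0.33 (n = 5) and CAC_FPL of -0.11 ± 0.44 (n = 6). In CAC_FPL, replicate 3 stood apart at -0.94, and the other libraries had -0.10 to 0.33, with a group median of -0.038.

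The direction of that shift rested on Aoc1. With breakdown taken as Smox and Sat1 only, an alternative chosen after the data were seen, the difference had a mean of -0.0019 ± 0.16 in CAC and -0.38 ± 0.16 in CAC_F, so that it dropped by 0.38 in place of a gain of 0.80. The mean of Smox and Sat1 went from 6.21 ± 0.055 to 7.05 ± 0.16 log2 CPM and that of the synthesis genes from 6.21 ± 0.14 to 6.67 ± 0.10. Of the 4 synthesis genes, Odc1, Srm and Sms had higher means in CAC_F and Azin1 differed by 0.029, while Smox and Sat1 had higher means and Aoc1 a lower one. By summed FPKM, which weights the abundant genes, the ratio of synthesis to breakdown averaged 1.60 in NC, 1.26 in CAC, 1.57 in CAC_F, 1.53 in CAC_FP and 1.28 in CAC_FPL. Its SD was 0.237 to 0.331, and the groups overlapped. The lowest ratio, 0.650, came from CAC_FPL replicate 3, and the other libraries of that group had 1.32 to 1.58.

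**Figure D3:**
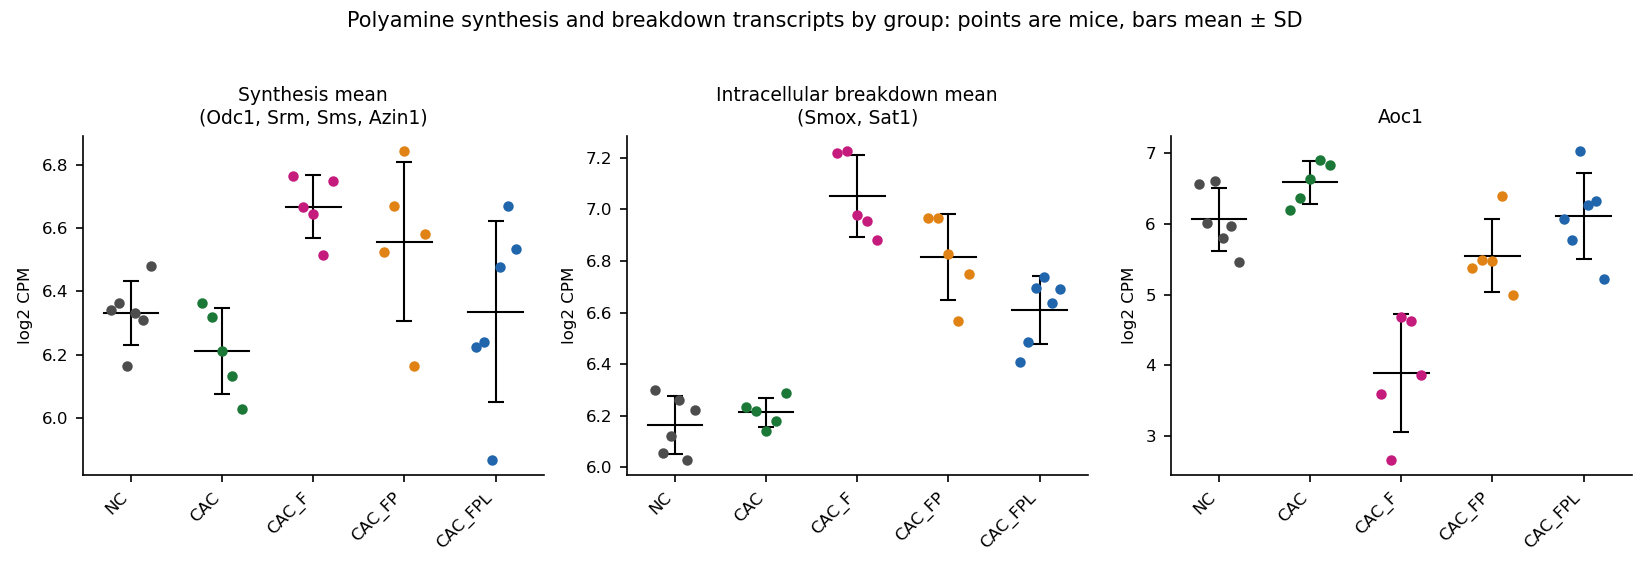
Mean log2 CPM of the 4 synthesis genes (left), of Smox and Sat1 (middle) and the log2 CPM of Aoc1 (right) by group, with 1 point per mouse and bars for the mean ± SD; the vertical axes do not start at 0 and differ between panels. The CAC_F means are the highest of the left and middle panels, at 6.67 and 7.05, and the lowest of the right panel.

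The ornithine enzymes did not move as a block. Summed over Otc, Arg1 and Arg2 they averaged 30.5 ± 3.73 CPM in NC, 32.5 ± 13.5 in CAC and 34.5 ± 13.7 in CAC_F. By mean FPKM, Arg2 was the highest of the 3 in all 5 groups. Otc came next in NC, with an FPKM of 3.75 against 0.973 for Arg1, and in CAC, with 3.39 against 1.08. In CAC_F it was below Arg1, with an FPKM of 0.032 against 4.28. The means had the same order in CAC_FP, with 0.92 ± 1.04 against 1.98 ± 0.818 (SD, n = 5). In CAC_FPL they were 1.23 ± 1.18 against 1.59 ± 0.972 (SD, n = 6), a difference within the spread. Single libraries went the other way, with Otc above Arg1 in CAC_FP replicate 4 and in CAC_FPL replicates 1, 2 and 5.

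Otc and Aoc1 varied together from library to library. Over the 27 libraries the Pearson r of their log2 CPM was 0.85, and after subtraction of each group's mean it was 0.51. In the 3 CAC_F libraries without an Otc count, the prior count sets its log2 CPM. Those values enter every r of Otc given here and below. This was not particular to the pair: Otc and Smox varied in opposite directions, with values of -0.87 and -0.58. Within groups Aoc1 also had -0.52 with Arg1 and -0.52 with Srm. Odc1 and Srm had values of 0.77 and 0.73, whereas Smox and Sat1 had 0.66 over all libraries and -0.20 within groups. These are descriptions with no test, and the libraries of a group share its treatment.

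**Figure D4:**
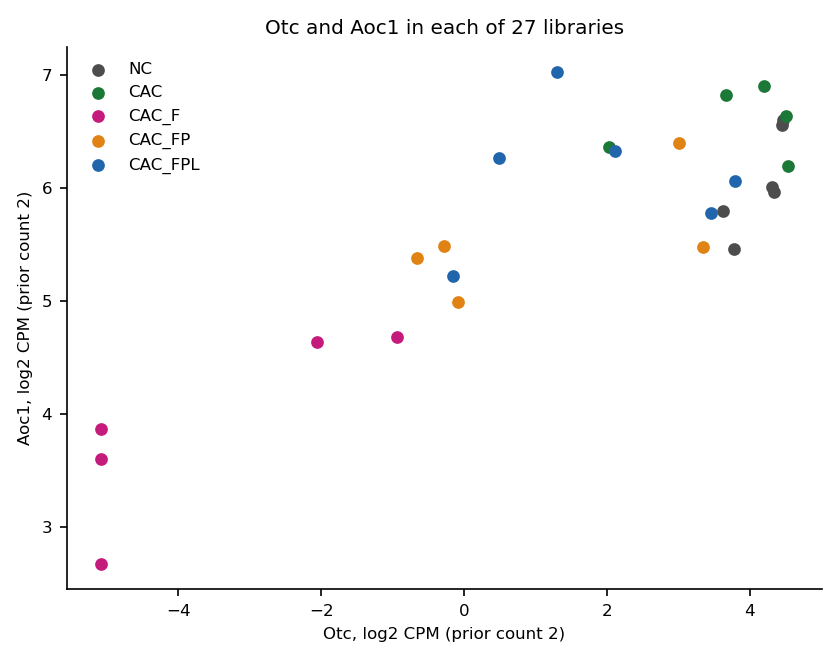
Log2 CPM of Otc (horizontal) against that of Aoc1 (vertical), with 1 point for each of the 27 libraries, coloured by group. The 5 CAC_F libraries lie at the lower left, with Aoc1 at 6.31 to 25.6 CPM, and the NC and CAC libraries at the upper right.

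The genes whose log2 CPM was most like each member's over the 27 libraries were listed by Pearson r, given with the r within groups after it. For Otc these were Krcc1 (r = 0.94, 0.79), Hnf4g (r = 0.93, 0.87) and Nectin3 (r = 0.93, 0.74). For Aoc1 they were Polg2 (r = 0.92, 0.72), Golph3l (r = 0.91, 0.77) and Slc5a6 (r = 0.90, 0.71), and for Smox Plaur (r = 0.94, 0.82), Gcnt2 (r = 0.94, 0.77) and Prss22 (r = 0.93, 0.67). Odc1 was most like Nop58 (r = 0.90, 0.90), Nifk (r = 0.89, 0.85) and Tuba1c (r = 0.89, 0.93), and Srm most like Trmt61a (r = 0.94, 0.91), Shq1 (r = 0.92, 0.90) and Nop2 (r = 0.92, 0.88). The r within groups of the last 2 sets was close to that over all libraries, so the likeness remained after the group means were subtracted. The r within groups is pooled over all groups, and no group was taken alone. Sms was most like Rsl24d1 (r = 0.89, 0.79), Cmss1 (r = 0.88, 0.79) and Lsm8 (r = 0.87, 0.76). For Arg1 the leading genes were Sfr1 (r = 0.85, 0.74) and Epn2 (r = 0.82, 0.68), for Arg2 Tgif1 (r = 0.72, 0.40) and Zfp217 (r = 0.70, 0.57), for Sat1 Slc38a6 (r = 0.82, 0.46) and Asah1 (r = 0.81, 0.49) and for Azin1 Amigo3 (r = 0.75, 0.86) and Ceacam2 (r = 0.71, 0.66), and for Arg2 and Sat1 the values within groups were low.

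Beyond the members, 48 genes of arginine, ornithine, proline and polyamine metabolism were listed, of which 42 were tested. Between CAC_F and CAC 12 rose, 10 fell and 20 did not pass (edgeR, adjusted over all 15080 genes). That is 52.4% called against 39.1% of all tested genes. The lists were also chosen with earlier results of these data known. Nothing is therefore read from that excess, and the adjusted p-values here and below are not independent of the choice. The median log2 change of the 42 was 0.069, and of all tested genes -0.029. Mtap, which recycles the methylthioadenosine left by polyamine synthesis, rose by 1.20 ± 0.22 (adjusted p = 0.000309), from 17.8 ± 3.93 to 40.7 ± 8.98 CPM (SD, n = 5). Myc, a transcription factor known to drive Odc1, rose by 1.73 ± 0.32 (adjusted p = 0.000338), with 18.1 to 50.8 CPM in CAC and 74.8 to 159.8 in CAC_F. Eif5a, the translation factor that carries the spermidine-derived hypusine, rose by 0.89 ± 0.17 (adjusted p = 0.000453), from 402 ± 93.9 to 745 ± 38.2 CPM. Paox, the peroxisomal oxidase of acetylated polyamines, rose by 0.58 ± 0.12 (adjusted p = 0.000733).

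Among the 10 that fell were enzymes of the proline branch. Pycr1, the mitochondrial enzyme that completes proline, fell from 15.1 ± 3.21 to 4.37 ± 1.41 CPM (-1.79 ± 0.24, adjusted p = 3.02e-05), and the groups did not overlap. Oat, which links ornithine to proline and glutamate, fell from 291 ± 77.5 to 172 ± 10.3 CPM (-0.76 ± 0.15, adjusted p = 0.000572). Gamt, the last enzyme of creatine synthesis, was scarce and fell by 1.06 on the log2 scale (adjusted p = 0.00347), and Apip, of the methionine salvage route, fell by 0.546 (adjusted p = 0.00432). Amd1, whose product supplies the aminopropyl groups for Srm and Sms, differed by 0.061 ± 0.12 and was not called (adjusted p = 0.722), and its counts are uncertain because the near-identical Amd2 held 18.6% to 23.1% as many in each library.

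**Figure D5:**
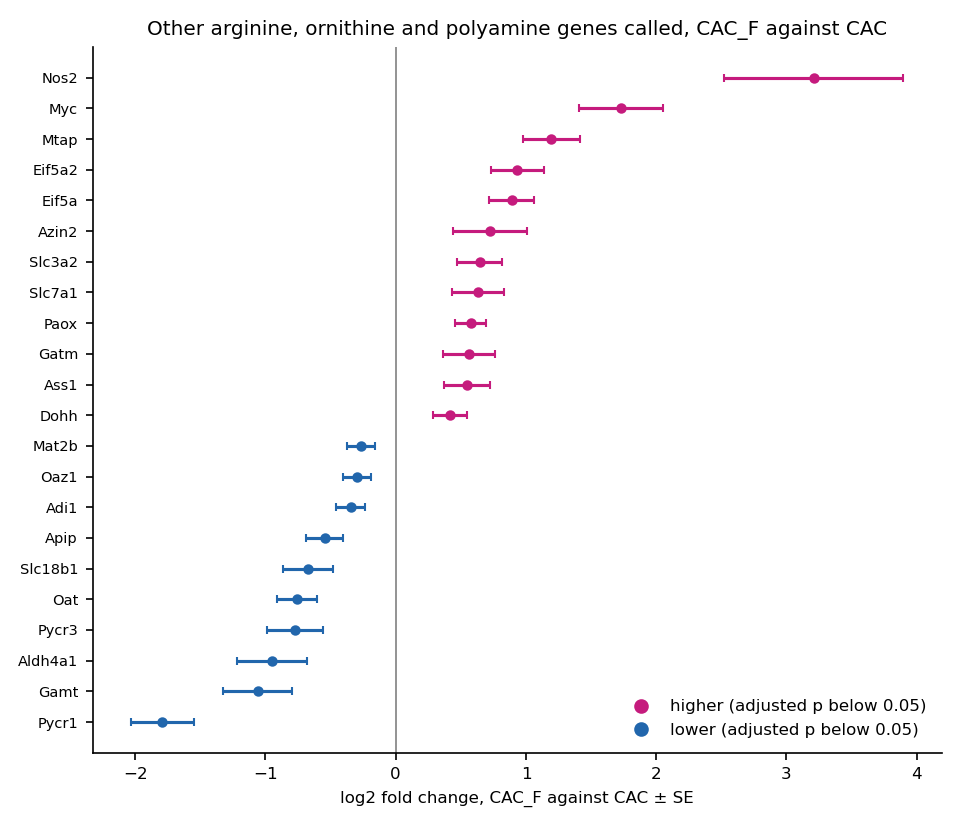
Log2 fold change ± SE between CAC_F and CAC (horizontal axis) of the 22 pathway genes, none of them members, that were called at an adjusted p below 0.05, ordered by value and coloured by direction. The 12 higher genes range up to Nos2 at 3.21, and the 10 lower ones down to Pycr1 at -1.79.

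None of the 42 passed edgeR's test in the other successive comparisons. Between CAC and NC, 2 of the 42 had an unadjusted p below 0.05, as did 1164 of the 15080 tested genes. Among the 2 was Gatm (0.40 ± 0.19, adjusted p = 0.641), the first enzyme of creatine synthesis. Between CAC_FP and CAC_F 13 of the 42 had an unadjusted p below 0.05, as did 2401 of the 15080. The smallest were those of the polyamine transporter Slc18b1 (0.70 ± 0.19, adjusted p = 0.132) and of Apip (0.46 ± 0.14, adjusted p = 0.155). DESeq2 called Slc18b1, as 1 of 247 genes. Between CAC_FPL and CAC_FP 2 of the 42 were below an unadjusted p of 0.05, as were 995 of the 15080. These were Gamt (0.69 ± 0.26, adjusted p = 0.692) and the lysosomal polyamine exporter Atp13a2 (0.29 ± 0.12, adjusted p = 0.694).

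Markers of cell types moved with the same comparison. Between CAC and CAC_F, 9 of 10 proliferation genes rose, and their sum per library was 600.1 to 1077 CPM in CAC and 1259 to 1693 CPM in CAC_F. All 8 smooth muscle markers fell, with sums of 3168 to 14408 CPM in CAC and 1521 to 2716 in CAC_F. Of 9 tested macrophage and monocyte markers 4 rose and 1 fell, with sums of 452 to 949 CPM in CAC and 971 to 1848 in CAC_F, and of 5 neutrophil markers 3 rose, with sums of 11.2 to 135 and 284 to 1070.3 CPM. Of 10 colonocyte markers 1 fell, Guca2a, with sums of 2926 to 8894 and 1389.5 to 5534 CPM, and of 8 pan-epithelial markers 2 rose. Of 3 tested hepatocyte markers 1 rose, Serpina1a, with 1.10 to 5.76 CPM in CAC and 6.43 to 15.7 in CAC_F, where it was highest in replicate 2, the library with the most Arg1. The hepatocyte markers summed to 4.74 to 40.5 and 9.68 to 60.4 CPM, and their part in the Arg1 level was not tested. Of 4 tested squamous markers 2 rose, with sums of 0.0915 to 13.8 and 7.48 to 38.3 CPM. With the smooth muscle mean as a covariate the log2 differences were -7.98 for Otc, -2.74 for Aoc1, 1.42 for Smox, 0.55 for Odc1 and 0.34 for Sms. The part of immune cells and of dividing cells in the members' levels was not tested.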

How the data were processed

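The deposited table holds read counts and FPKM per gene for each of the 27 libraries. Per the labels' protocols, Trizol RNA with a RIN above 7 gave stranded mRNA libraries; per the submitters' processing notes, cutadapt 1.9, FastQC and HISAT2 were used. Genome build, annotation and counting tool: not given in the sources used here. The counts are unnormalized read counts per gene as the authors deposited them. The FPKM values are those the authors deposited, scaled to gene length and library size; the authors' steps decide how reads shared by near-identical genes are divided.

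From the counts, TMM-scaled CPM and log2 CPM (prior count 2) were computed. Of 39971 genes, the 15080 that reached an FPKM of 1 in 5 or more libraries were tested. One edgeR 4.0.16 quasi-likelihood model (R 4.3.3) held a coefficient for each of the 5 groups. P-values were adjusted by Benjamini-Hochberg over all tested genes, and a call needs an adjusted p below 0.05. The SE of a log2 fold change was derived from its F statistic. limma 3.58.1 and DESeq2 1.42.0 served as alternatives. The fit was tested on simulated data.

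All 10 members were named in every comparison. Of the pathway lists, up to 4 called genes in each direction with the smallest adjusted p were named, or, where none was called, up to 2 with the smallest unadjusted p, and Amd1, Nos2, Cps1 and the lists' copies were named besides, after their values were seen. The values of 1 listed pathway gene are not reported here. The members and lists were chosen with earlier results of these data known, and the comparison of CAC_FPL with CAC_F was added after the data were seen. P-values of the main fit weigh a difference against the spread between mice within groups as labelled, estimated from all libraries together.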

Additional observations from a re-analysis of the deposited data

Results flagged for a closer look

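In each group the highest and the lowest library of each member were compared with the rest by the gap to the nearest library, divided by the group's range, both on log2 CPM. Of 50 groups tested 2 passed Dixon's limit, where chance gives about 1 in 20. Arg2 in CAC_F had 1 library far below the others, replicate 5, with a ratio of 0.788 on that scale: it had 11.2 CPM and the other 4 had 25.3 to 31.4 CPM. Smox in CAC_FP had replicate 4 far below the others, with a ratio of 0.769: it had 40.0 CPM against 64.8 to 74.9 CPM. That Smox library also had the highest Aoc1 of its group, 84.3 CPM, and the lowest Odc1 and Srm, 186 and 30.5 CPM.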

How the results depend on the processing

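The count of members called was the least stable result where few passed. From 0 in CAC_FP against CAC_F it went to 2 with DESeq2, where 1.64% of all genes were called, and ran from 0 to 2 with single libraries left out. From 0 in CAC_FPL against CAC_FP it went to 1 with voom quality weights, where 4.46% of all genes were called. From 3 in CAC_FP against NC it went to 8 with voom weights, 6 on log2(FPKM + 1) and 6 on log2(FPKM + 0.1), 5 with the replicate block, 5 with only the groups compared and 1 with the smooth muscle covariate. Calls over all tested genes moved too there: 26.5% as reported, 44.2% with voom weights, 28.8% and 29.1% on the FPKM scales, 28.1% with the block, 32.2% with only the groups compared and 16.4% with the smooth muscle covariate. On the FPKM scales the median of all genes was itself 0.095 and 0.12 higher there. From 3 in CAC_FPL against NC it went to 1 with no filter, voom weights, the replicate block, either covariate, or without CAC replicate 2 and CAC_FPL replicate 3, and ran from 1 to 3 with single libraries left out. Over all genes these settings called 1.61% (no filter), 10.5% (voom weights), 5.74% (block), 7.29% and 5.07% (smooth muscle and pan-epithelial covariates) and 13.5% (without the 2 libraries), against 7.08%. From 5 in CAC_FPL against CAC_F it went to 3 with no filter, with a mean FPKM of at least 5, on log2(FPKM + 1) or without those 2 libraries, and to 0 with only the groups compared, where 0% of all genes were called; single libraries left out gave 3 to 5. The first 4 of these settings called 1.96%, 17.9%, 11.4% and 7.46% of all genes, against 12.2%. In CAC_F against CAC the count of 8 ran from 7 to 9.

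Pathway genes called went from 0 to 1 with DESeq2 in CAC_FP against CAC_F (0 to 2 with single libraries left out), and from 0 to 3 with voom weights in CAC_FPL against CAC_FP. Synthesis minus breakdown went from 0.80 to 0.33 by summed FPKM and to -0.38 without Aoc1 in CAC_F against CAC, and from -0.51 to -0.060 and 0.13 in CAC_FP against CAC_F. The cause was not tested.

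Directions turned for 12 member log2 fold changes, 11 of them tested and not called. Azin1 in CAC_F against CAC, where members have no test, gave -0.018 with voom weights, -0.046 with quantile normalization, -0.027 and -0.026 with the smooth muscle and pan-epithelial covariates, and -0.017 to 0.11 with single libraries left out. In CAC against NC, Otc gave 1.52 with the pan-epithelial covariate, 0.067 without CAC replicate 2 and CAC_FPL replicate 3, and -0.34 to 0.067 with single libraries left out. Arg1 gave -0.31 with the pan-epithelial covariate and -0.051 to 0.16 with single libraries left out. Odc1 gave 0.00043 with a mean FPKM of at least 5, 0.067 with quantile normalization, 0.020 on both FPKM scales, 0.038 with the pan-epithelial covariate and -0.11 to 0.030 with single libraries left out. Smox gave 0.032 with a mean FPKM of at least 5, 0.054 and 0.060 on the FPKM scales, 0.0025 with the replicate block, 0.0044 with only the groups compared and -0.057 to 0.063 with single libraries left out. In CAC_FP against CAC_F, Srm gave -0.024 with quantile normalization, -0.0060 and -0.0071 on the FPKM scales and -0.074 to 0.17 with single libraries left out, and Arg2 -0.34 to 0.14. In CAC_FPL against CAC_FP, single libraries left out gave -0.054 to 1.11 for Otc and -0.16 to 0.024 for Sms. Azin1 in CAC_FP against NC gave 0.049 and 0.050 on the FPKM scales. In CAC_FPL against NC, Odc1 gave -0.0051 with voom weights and -0.048 to 0.19 with single libraries left out, and Aoc1 -0.094 with voom weights, -0.012 with the smooth muscle covariate, -0.13 without those 2 libraries and -0.13 to 0.25 with single libraries left out.

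Deviations of libraries with equal replicate numbers had a mean r of -0.0079 (51 pairs) against 0.0026 for other pairs (240). No pairing of mice by number was seen in these values, which cannot show that there was none. With the block, the counts given above moved. Otc in CAC_F rests on 47 counts, so its fold change is the least precise here.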
